A study of Homo sapiens with 4 samples.

Results

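The copying of DNA needs a set of proteins that load, start and run the replication fork, and the transcripts of 46 of these genes are described here in human liver cancer cells given a mimic of the microRNA miR-4730. The 46 genes were picked by symbol from the licensing, helicase, clamp loader, polymerase and fork protection machinery. All 46 had a probe set among the 17687 named genes of the arrays, and all 46 were among the 12381 genes bright enough to be tested. Both lines, Li-7 and HEP-G2, are established lines from human liver tumours, and each was measured once with a negative control oligonucleotide and once with the mimic, on 4 Affymetrix arrays in all. The mimic was transfected with a lipid reagent at 3 nM, 24 h after seeding, and the control oligonucleotide came from the same supplier. Li-7 was grown in RPMI-1640 and HEP-G2 in DMEM, both with 10% serum, so line and medium cannot be told apart. The series title names HMGA1, an architectural chromatin protein, as the target, and HMGA1 went from 14.93 to 10.91 in Li-7 and from 14.79 to 11.61 in HEP-G2 (mean change -3.59, SE 0.29, limma with Benjamini-Hochberg adjusted p = 0.0241).

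RefSeq lists 1 mature form of miR-4730, at chr17:80419427-80419449 on the plus strand of GRCh38.p14, and it is shown because it is the agent given to the cells. The seed, bases 2 to 8, is in capitals.
hsa-miR-4730: cUGGCGGAgcccauuccaugcca

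Values below are those deposited for each gene's probe set, on a scale like log2, for which the sources used here state neither log base nor normalization. A difference of 1 unit is read as 2-fold. Changes are mimic minus control. With 1 array per group there is no replicate check within a line. The limma test of the common response takes its spread from the disagreement between the lines (1 residual degree of freedom per gene). That spread is shrunk toward a variance pooled over all genes (5.85 prior degrees of freedom), which carries most of the weight. Array medians ran from 7.03 to 7.17. An array's background limit, taken as percentile 95 of its 612 negative control probe sets, lay between 7.99 and 8.72, and values under it leave the size of a change open to error. Of 8 hepatocyte lineage genes with a probe set, 8 lay above it on both HEP-G2 arrays, but 0 on the Li-7 control array and 1 (SERPINA1, 8.40) on the Li-7 mimic array. On the Li-7 control array 6494 of the 17687 named genes lay above the limit, so a value under it does not show absence. The epithelial genes KRT8, KRT18 and EPCAM lay above it on all arrays and CDH1 on the Li-7 arrays. Of the markers of other cell types, 0 of 4 blood genes, 0 of 3 endothelial genes and 1 of 4 stromal genes (COL1A2, above it on all 4) lay above it on any array.

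In the G1 phase, the origin recognition complex, CDC6 and CDT1 load rings of MCM2 to MCM7 onto origins, which licenses them. At the start of S phase the DBF4-dependent kinase CDC7, together with cyclin-dependent kinases, brings CDC45 and the GINS complex to the ring and so switches on the helicase. Polymerase alpha and primase then lay primers, RFC places the PCNA clamp, polymerases delta and epsilon extend the strands, and FEN1 and LIG1 join the lagging strand fragments. Many of these genes are known targets of E2F factors and are transcribed most at the G1/S transition.

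Replication genes were lower with the mimic almost throughout the set. Lower values with the mimic were seen for 44 of 46 members in Li-7 (background over all genes tested 48.2%) and for 46 of 46 in HEP-G2 (background 48.8%, and 45 members after quantile normalization or cyclic loess). In both lines at once 44 of 46 were lower, against 31% of all genes. The members' median change was -0.95 (Li-7) and -1.54 (HEP-G2), and that of all genes tested was 0.02 in each line. At least 2-fold lower by value were 20 members in Li-7 (43.5%, background 4.12%), 38 in HEP-G2 (82.6%, background 6.28%) and 20 in both lines (background 1.76%). Among those 20, MCM10, POLA2 and LIG1 lay under the background limit on all arrays and POLE2 on both HEP-G2 arrays. For MCM6 and CHAF1A the limit shows falls of at least 1.19-fold and 1.48-fold in HEP-G2. For these members a 2-fold size is uncertain. With the mimic 25 of the 46 HEP-G2 values lay above the background limit, and 6 members (CDT1, MCM10, POLA2, POLD1, LIG1 and RPA2) lay above it on no array. No member was 2-fold higher in either line (backgrounds 3.72% and 5.77%). In cell cultures such as these, fewer cells in S phase and less of each transcript per cell cannot be told apart.

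**Figure D1:**
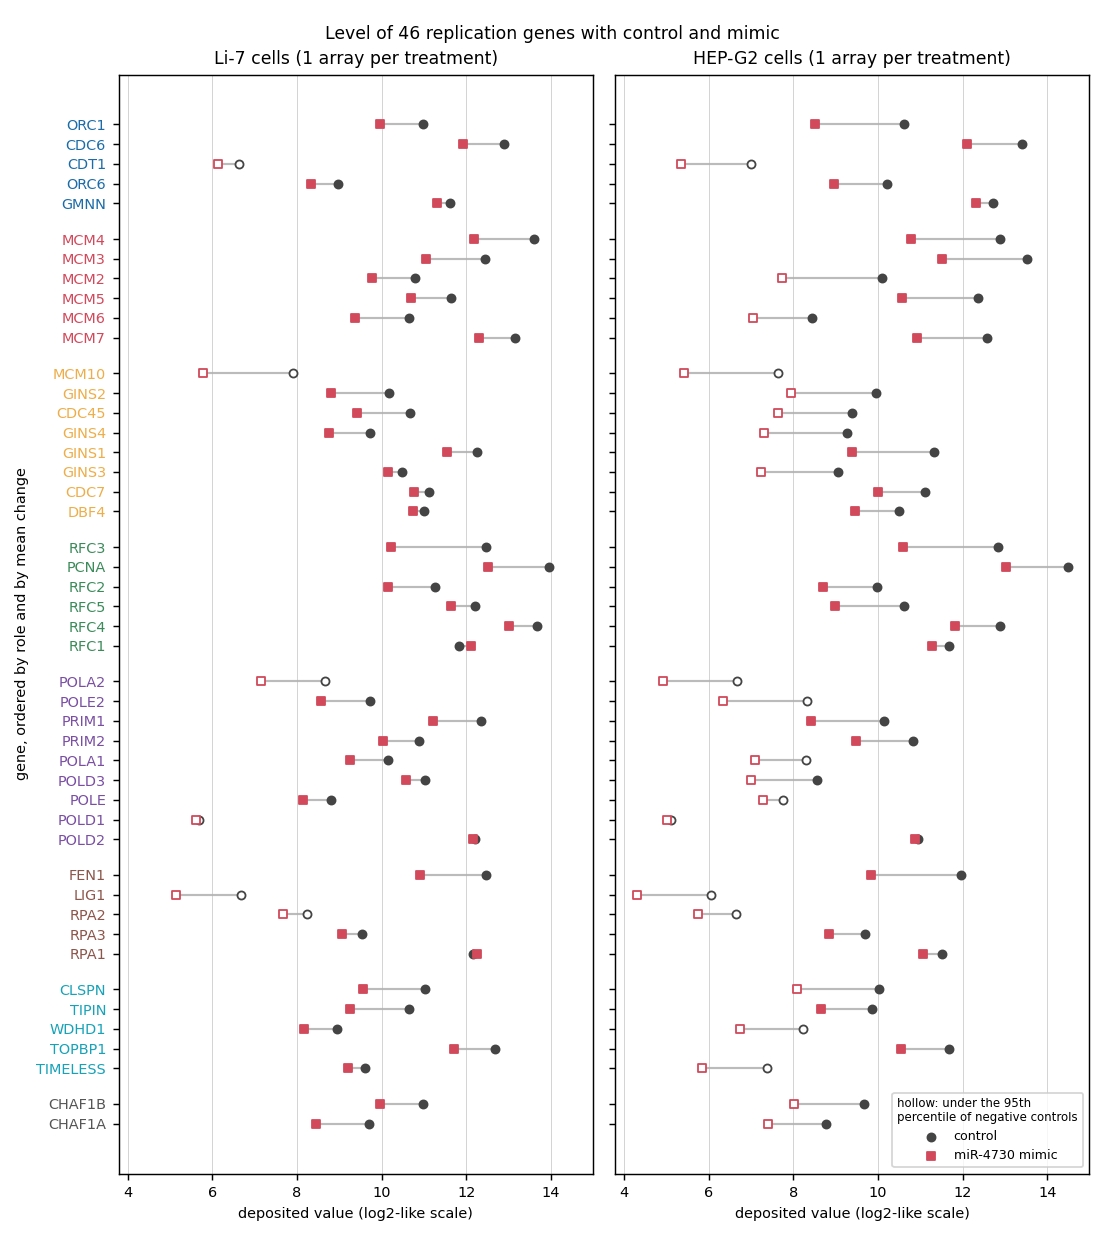
Deposited value (log2-like scale) of each of the 46 genes with the control (circle) and the mimic (square), 1 array per treatment, with Li-7 on the left and HEP-G2 on the right. Gene names are coloured by role and hollow marks lie under the background limit. The mimic mark lies to the left of the control mark for 44 genes in Li-7 and for 46 in HEP-G2.

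In the test of the common response over all genes, 2 of 46 members fell (4.35%, background 0.339%) and 0 rose (background 0.0808%). They were RFC3 and MCM10. RFC3, a small subunit of the clamp loader, went from 12.48 to 10.21 in Li-7 and from 12.84 to 10.58 in HEP-G2, and both mimic values lay below both control values. Its mean change was -2.26 (SE 0.24, limma adjusted p = 0.0301), which is 4.80-fold lower. MCM10, which helps the loaded helicase to start, went from 7.91 to 5.77 in Li-7 and from 7.63 to 5.42 in HEP-G2. Its mean change was -2.18 (SE 0.24, limma adjusted p = 0.0308), but all 4 values lay under the background limit, so no fold is given. FEN1, the nuclease that trims the flaps of lagging strand fragments, just missed the threshold. It went from 12.47 to 10.91 in Li-7 and from 11.96 to 9.83 in HEP-G2, a mean change of -1.85 (SE 0.27, limma adjusted p = 0.0520). At an adjusted p under 0.1, 23 members were lower (50%, background 2.12%), and at an unadjusted p under 0.05, 39 were (84.8%, background 9.71%). SEs of the 46 mean changes ran from 0.24 to 0.37. Those of RFC3 (0.2433) and MCM10 (0.2437) lay near the lowest SE of all genes tested (0.2433), which is set mostly by the pooled variance. The count of members that fell depended on the settings. It was 24 after quantile normalization (background 2.2%) and 25 with an intensity trend in eBayes (background 2.04%). With stricter filters on low values it was 21 or 13 of the 40 members left (backgrounds 2.7% and 1.66%). It was 0 with an ordinary t statistic, where 10 members were lower at an unadjusted p under 0.05 (background 3.8%), and 0 without a term for cell line, where 9 were (background 1.07%).

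**Figure D2:**
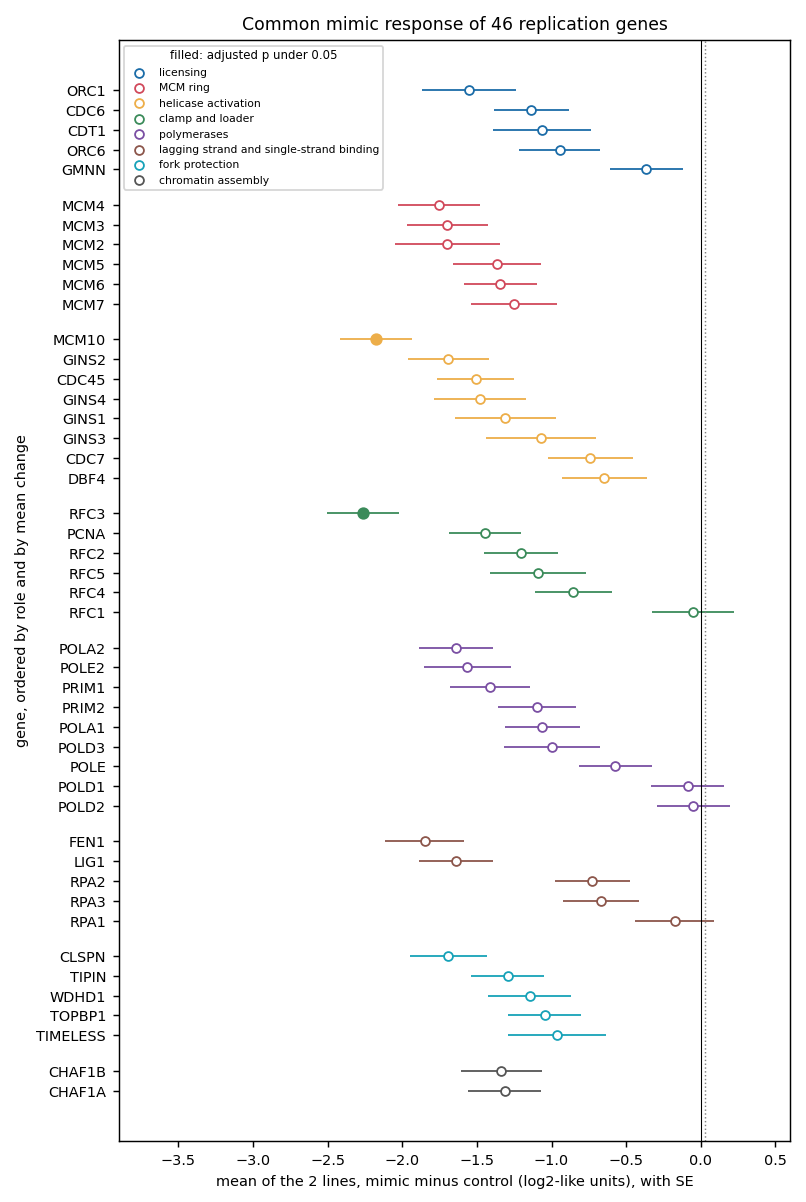
Mean change over the lines (mimic minus control, log2-like units) of each member with its SE from the limma fit, grouped by role. Filled circles mark RFC3 and MCM10, which passed at an adjusted p of 0.05, the solid line marks 0 and the dotted line the median of all genes tested. All 46 means lie below 0, and after cyclic loess 44 do, RFC1 and POLD2 then standing at 0.04.

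The DNA before the members' start sites was read from the RefSeq promoter table of GRCh38.p14. It held 50 starts of 40 members (MCM4, MCM5, GINS4, POLD3, RPA2 and RPA3 had no entry). Windows ran from 250 bases before to 50 after the start. They were searched on both strands for the E2F-like words TTTCGCGC, TTTGGCGC, TTTCCCGC and TTTGCCGC, which may overlap each other on opposite strands. A word was present for 21 of 40 members (52.5%) and for 6.28% of 10168 genes tested with an entry. A CCAAT box was present for 57.5% of members and 43.5% of those genes, and the word TTTGAA or TTCGAA of the cell cycle homology element for 5% and 16.5%. Each gene counts once here, whatever its number of starts, and a match is a run of letters, not a bound site. The members were picked by role and many are known E2F targets, so their share of words does not bear on the mimic response. Members with an E2F-like word had a median mean change of -1.31 (n = 21, from -2.26 to -0.36) and those without one of -1.10 (n = 19, from -2.18 to -0.05), ranges that overlap over most of their span.

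The 150 bases before the start are shown for 8 members chosen to set the size of the change beside the letters, with E2F-like words in capitals, 5′ to 3′ on the strand of the gene. RFC3 (chr13:33817999-33818148 on the plus strand), GINS2 (chr16:85688955-85689104 on the minus strand) and MCM6 (chr2:135876444-135876593 on the minus strand) were at least 2-fold lower by value in both lines and hold such words, and CDC7 (chr1:91500962-91501111 on the plus strand) holds 2 of them, with changes of -0.36 (Li-7) and -1.13 (HEP-G2).
RFC3: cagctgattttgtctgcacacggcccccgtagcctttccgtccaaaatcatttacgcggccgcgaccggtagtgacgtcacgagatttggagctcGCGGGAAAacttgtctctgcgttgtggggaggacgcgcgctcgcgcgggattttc
GINS2: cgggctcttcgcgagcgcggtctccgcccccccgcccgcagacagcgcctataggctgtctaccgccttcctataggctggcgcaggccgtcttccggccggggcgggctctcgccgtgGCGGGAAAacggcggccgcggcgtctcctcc
MCM6: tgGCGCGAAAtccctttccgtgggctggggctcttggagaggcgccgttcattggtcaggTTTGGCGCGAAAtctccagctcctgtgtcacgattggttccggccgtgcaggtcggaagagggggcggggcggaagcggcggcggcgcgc
CDC7: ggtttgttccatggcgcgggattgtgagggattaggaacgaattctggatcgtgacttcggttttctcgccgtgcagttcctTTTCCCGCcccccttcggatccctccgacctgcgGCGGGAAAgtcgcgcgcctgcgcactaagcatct
MCM10 (chr10:13161408-13161557 on the plus strand) and FEN1 (chr11:61792761-61792910 on the plus strand) had mean changes of -2.18 and -1.85, and no E2F-like word is in their windows, while the MCM10 window holds CCAAT.
MCM10: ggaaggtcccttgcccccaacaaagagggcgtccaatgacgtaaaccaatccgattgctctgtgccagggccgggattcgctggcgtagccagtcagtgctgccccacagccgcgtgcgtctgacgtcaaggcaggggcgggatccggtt
FEN1: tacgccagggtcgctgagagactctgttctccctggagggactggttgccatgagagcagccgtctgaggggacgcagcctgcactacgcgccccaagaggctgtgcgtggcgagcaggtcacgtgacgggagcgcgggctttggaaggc
RFC1 (chr4:39366363-39366512 on the minus strand) and POLD2 (chr7:44123549-44123698 on the minus strand) had the smallest mean changes of all members and hold no E2F-like word either, while CCAAT is in both search windows on one strand or the other (for RFC1 upstream of the bases shown).
RFC1: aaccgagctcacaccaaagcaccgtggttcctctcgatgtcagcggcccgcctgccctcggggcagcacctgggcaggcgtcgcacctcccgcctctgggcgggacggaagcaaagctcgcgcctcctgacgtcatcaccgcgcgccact
POLD2: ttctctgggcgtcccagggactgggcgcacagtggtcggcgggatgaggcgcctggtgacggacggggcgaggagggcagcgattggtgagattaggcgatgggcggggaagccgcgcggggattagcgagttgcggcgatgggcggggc
These 8 were picked by their values, so they show the letters and bear on no relation between words and changes.

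Licensing factors differed among themselves in the size of the change. All 5 were lower in both lines (background 31%), and the group's median change was -0.64 (Li-7) and -1.31 (HEP-G2). ORC1, the origin recognition subunit whose level cycles with the cell cycle, went from 10.98 to 9.96 in Li-7 and from 10.61 to 8.52 in HEP-G2, with a larger difference in HEP-G2. Its mean change was -1.55 (SE 0.32, limma adjusted p = 0.0851). CDC6, the ATPase that helps to load the rings, went from 12.88 to 11.92 in Li-7 and from 13.41 to 12.10 in HEP-G2, and CDT1, its partner, from 6.63 to 6.14 in Li-7 and from 6.99 to 5.35 in HEP-G2. The CDT1 values all lay under the background limit. ORC6, the smallest origin recognition subunit, went from 8.97 to 8.33 in Li-7 and from 10.21 to 8.96 in HEP-G2. GMNN, or geminin, the inhibitor that binds CDT1 after origins have fired, had the smallest change of the group (-0.31 in Li-7, -0.42 in HEP-G2, adjusted p = 0.462). Its control and mimic values were 11.61 and 11.30 in Li-7 and 12.73 and 12.31 in HEP-G2. The other origin recognition subunits, which are no members here, did not share one direction. ORC2 stood at -0.14 (Li-7) and 0.10 (HEP-G2), ORC3 at 0.20 (Li-7) and -0.65 (HEP-G2), ORC4 at 0.40 (Li-7) and 0.32 (HEP-G2) and ORC5 at -0.46 (Li-7) and -1.005 (HEP-G2), and none of them passed.

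The subunits of the MCM ring shared one direction. All 6 were lower in both lines (background 31%), with changes from -1.41 to -0.85 (Li-7) and from -2.36 to -1.39 (HEP-G2). In the limma test 0 of 6 passed at an adjusted p of 0.05 (background for lower genes 0.339%), and 6 were lower at an unadjusted p under 0.05 (background 9.71%). MCM4 went from 13.60 to 12.19 in Li-7 and from 12.88 to 10.78 in HEP-G2 (mean change -1.75, SE 0.28, limma adjusted p = 0.0601). MCM3 went from 12.44 to 11.04 in Li-7 and from 13.52 to 11.52 in HEP-G2 (mean change -1.70, adjusted p = 0.0601). These had the lowest adjusted p of the ring, and their lowest control value lay above their highest mimic value. MCM2 went from 10.80 to 9.76 in Li-7 and from 10.10 to 7.74 in HEP-G2, and MCM6 from 10.65 to 9.36 in Li-7 and from 8.45 to 7.06 in HEP-G2. In HEP-G2 both ended under the background limit, so MCM2 was at least 3.72-fold lower there and MCM6 at least 1.19-fold. MCM5 went from 11.64 to 10.70 in Li-7 and from 12.37 to 10.58 in HEP-G2 and MCM7 from 13.14 to 12.30 in Li-7 and from 12.58 to 10.93 in HEP-G2. MCM7 had the smallest mean change of the ring, -1.25 (SE 0.29), which still overlaps that of MCM5 within the SEs.

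Factors that turn the loaded ring into a helicase were lower in both lines in 8 of 8 cases (background 31%). The group's median change was -0.83 (Li-7) and -1.86 (HEP-G2). CDC45, the helicase cofactor, went from 10.68 to 9.41 in Li-7 and from 9.38 to 7.63 in HEP-G2, at least 2.26-fold lower in HEP-G2. Its mean change was -1.51 (SE 0.26, limma adjusted p = 0.0690). The 4 GINS subunits form 1 complex, and in Li-7 their changes ran from -1.36 (GINS2) to -0.34 (GINS3). GINS2 went from 10.17 to 8.80 in Li-7 and from 9.95 to 7.94 in HEP-G2, and GINS3 from 10.49 to 10.15 in Li-7 and from 9.05 to 7.25 in HEP-G2, and GINS3 had the smaller difference in Li-7. GINS1 went from 12.24 to 11.55 in Li-7 and from 11.32 to 9.40 in HEP-G2, and GINS4 from 9.72 to 8.75 in Li-7 and from 9.28 to 7.30 in HEP-G2. In HEP-G2 the mimic values of GINS2, GINS3 and GINS4 lay under the background limit, which makes them at least 3.36-fold, 1.79-fold and 2.10-fold lower. The kinase CDC7 (-0.36 in Li-7, -1.13 in HEP-G2) and its activating subunit DBF4 (-0.26 in Li-7, -1.03 in HEP-G2) had the smallest mean changes of the group (-0.74 and -0.65).

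In the clamp and its loader, mean changes over the lines ran from the largest of all members (RFC3) to one near 0 (RFC1). PCNA, the sliding clamp, went from 13.95 to 12.51 in Li-7 and from 14.49 to 13.03 in HEP-G2, and its change was nearly equal in the lines (mean change -1.45, SE 0.24, limma adjusted p = 0.0664). Of the small loader subunits, RFC3 had the largest change, RFC2 went from 11.27 to 10.14 in Li-7 and from 9.99 to 8.70 in HEP-G2, and RFC4 (-0.65 in Li-7, -1.06 in HEP-G2) and RFC5 (-0.55 in Li-7, -1.63 in HEP-G2) had smaller changes in Li-7. RFC1, the large subunit that makes the loader specific for PCNA, went from 11.83 to 12.11 in Li-7 and from 11.67 to 11.28 in HEP-G2. It was higher in Li-7 and lower in HEP-G2, with a mean change of -0.05 (SE 0.27, adjusted p = 0.948) whose direction flipped after cyclic loess (0.04). RFC2 to RFC5 also serve other loaders with other large subunits. Of those, ATAD5, which unloads PCNA, stood at -1.08 (Li-7) and -2.30 (HEP-G2), with a limma adjusted p of 0.0850. Its HEP-G2 mimic value lay under the background limit, so ATAD5 was at least 2.58-fold lower there. RAD17, of the checkpoint clamp loader, stood at -0.08 (Li-7) and 0.17 (HEP-G2). CHTF18 stood at -0.11 (Li-7) and 0.61 (HEP-G2) with all values under the background limit.

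Replicative polymerases differed by complex and by subunit. All 4 genes of polymerase alpha and primase were lower in both lines (background 31%), with changes from -1.51 to -0.85 (Li-7) and from -1.77 to -1.22 (HEP-G2). PRIM1, the catalytic primase subunit, went from 12.34 to 11.22 in Li-7 and from 10.14 to 8.43 in HEP-G2 (mean change -1.41, SE 0.27, limma adjusted p = 0.0769). POLA2, the accessory subunit of polymerase alpha, went from 8.65 to 7.14 in Li-7 and from 6.68 to 4.91 in HEP-G2, with all values under the background limit. POLA1, the catalytic subunit, stood at -0.91 (Li-7) and -1.22 (HEP-G2), with both HEP-G2 values under that limit. The ends of the HEP-G2 range, which are those of POLA2 and POLA1, are thus uncertain in size. PRIM2, the large primase subunit, stood at -0.85 (Li-7) and -1.35 (HEP-G2). In polymerase epsilon the changes differed in size between subunits. POLE2 went from 9.73 to 8.58 in Li-7 and from 8.32 to 6.34 in HEP-G2 and POLE, the catalytic subunit, from 8.81 to 8.14 in Li-7 and from 7.75 to 7.27 in HEP-G2, and both lay under that limit on both HEP-G2 arrays. Among subunits outside the set of members, POLE3 stood at -1.21 (Li-7) and -1.86 (HEP-G2), with a limma adjusted p of 0.0738. Its HEP-G2 mimic value lay under the background limit, so POLE3 was at least 3.30-fold lower there. POLE4 stood at 0.01 (Li-7) and -0.21 (HEP-G2).

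POLD1 and POLD2 of polymerase delta had the smallest changes of the polymerases by value. POLD2, an accessory subunit bright on all arrays, went from 12.21 to 12.17 in Li-7 and from 10.94 to 10.88 in HEP-G2, a mean change of -0.05 (SE 0.24, adjusted p = 0.941), which is smaller than its SE. POLD1, the catalytic subunit, stood at -0.08 (Li-7) and -0.10 (HEP-G2), but its values, between 5.01 and 5.69, lay under the background limit on all arrays, so the size of its change is uncertain. POLD1 and POLD2 were the 2 members within 0.25 of 0 in both lines. POLD3, the subunit that binds PCNA, went from 11.03 to 10.59 in Li-7 and from 8.56 to 7.01 in HEP-G2, at least 1.28-fold lower in HEP-G2. POLD4, the smallest subunit and no member here, was higher in both lines (0.80 in Li-7, 1.14 in HEP-G2, mean change 0.97, limma adjusted p = 0.125). Its HEP-G2 control value lay under the background limit, so the size of its change there is uncertain.

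Among the lagging strand and single-strand binding genes, FEN1 and LIG1 had lower mean changes by value than the RPA subunits. LIG1, the ligase, went from 6.67 to 5.15 in Li-7 and from 6.05 to 4.30 in HEP-G2 (mean change -1.64, SE 0.25, limma adjusted p = 0.0581), with all values under the background limit, while FEN1 lay above it on all arrays. RPA1, the large subunit of the protein that coats single-stranded DNA, went from 12.15 to 12.25 in Li-7 and from 11.50 to 11.05 in HEP-G2, higher in Li-7 and lower in HEP-G2, and its mean change of -0.17 (adjusted p = 0.769) was smaller than its SE of 0.26. RPA2, all of whose values lay under that limit, stood at -0.57 (Li-7) and -0.88 (HEP-G2), and RPA3 at -0.48 (Li-7) and -0.86 (HEP-G2). The RPA subunits were not tested against each other.

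Fork protection and checkpoint adaptor genes were lower in both lines in 5 of 5 cases (background 31%). CLSPN, or claspin, which carries the stalled fork signal from ATR to CHEK1, went from 11.02 to 9.56 in Li-7 and from 10.01 to 8.10 in HEP-G2. It was at least 3.51-fold lower in HEP-G2 and had a mean change of -1.69 (SE 0.26, limma adjusted p = 0.0589). TIMELESS and TIPIN form 1 complex, yet their values differed. TIPIN went from 10.64 to 9.24 in Li-7 and from 9.85 to 8.66 in HEP-G2, and TIMELESS from 9.60 to 9.20 in Li-7 and from 7.39 to 5.85 in HEP-G2, where both HEP-G2 values of TIMELESS lay under the background limit. TIPIN was 1 of 2 members, with POLE, whose change by value was larger in Li-7. TOPBP1, a scaffold of initiation and of ATR activation, stood at -0.98 (Li-7) and -1.11 (HEP-G2). WDHD1, which ties polymerase alpha to the helicase, stood at -0.80 (Li-7) and -1.497 (HEP-G2), with both HEP-G2 values under the background limit. CHAF1A and CHAF1B, subunits of the factor that sets new histones behind the fork, were at least 2-fold lower in both lines by value. CHAF1A went from 9.70 to 8.44 in Li-7 and from 8.77 to 7.40 in HEP-G2, and CHAF1B from 10.97 to 9.95 in Li-7 and from 9.66 to 8.01 in HEP-G2. Both dropped under that limit with the mimic in HEP-G2 (at least 1.48-fold and 2.75-fold lower), and their mean changes were -1.31 and -1.34 (limma adjusted p = 0.0756 and 0.0851).

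**Figure D3:**
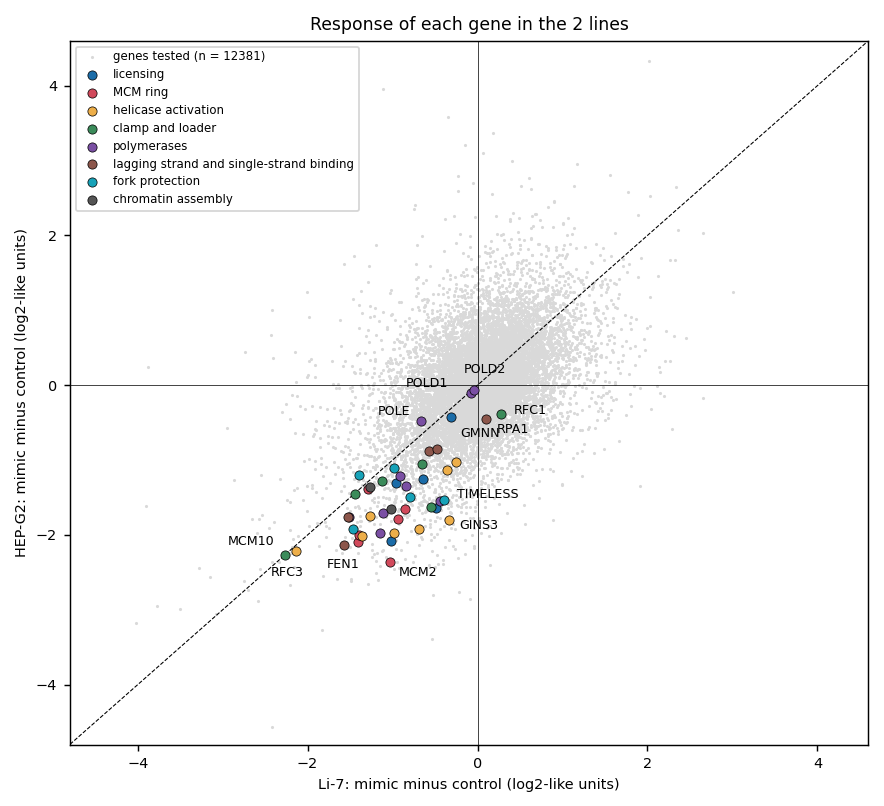
Mimic minus control (log2-like units) in Li-7 on the horizontal axis and in HEP-G2 on the vertical axis for all 12381 genes tested (grey) and the 46 members (coloured by role), each value a difference of single arrays. The dashed line marks equal change and 44 members lie below it, among them RFC3 and MCM10, which lie close to it at the lower left.

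The signed change was lower in HEP-G2 than in Li-7 for 44 of 46 members (background 51.6%). After quantile normalization, median centring or cyclic loess the count was 41, 40 and 41 (backgrounds 48.8%, 50% and 46.8%). By value the gap between the lines was largest for GINS3 (-1.46), MCM2 (-1.33), GINS1 (-1.24), CDT1 (-1.15) and TIMELESS (-1.14), and its median was -0.56 against -0.02 over all genes. Of these 5 only GINS1 lay above the background limit on all arrays, so the size and order of the other gaps are uncertain. It was within 0.1 of 0 for RFC3, PCNA, POLD1, POLD2, MCM10, MCM6 and CHAF1A. Responses of all genes were also wider in HEP-G2, with an SD of 0.675 against 0.577 in Li-7. By rank, 24 members (52.2%) lay among the lowest 5.01% of genes in Li-7 and 35 (76.1%) among the lowest 5.01% in HEP-G2. Across the 46 members, the Li-7 and HEP-G2 changes had a Pearson correlation of 0.723 and a Spearman correlation of 0.687, against a Pearson correlation of 0.469 across all 12381 genes; genes measured on the same arrays are not independent. The Pearson correlation of the members' mean change with their mean control level was -0.0821, against -0.131 across all genes. Control values enter both quantities, and their noise alone pulls such a correlation below 0. With 1 array per group, no test of the difference between the lines was possible.

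Proliferation markers were lower by value as well. All 8 were lower in both lines (background 31%), with median changes of -0.59 (Li-7) and -1.83 (HEP-G2). In the limma test 0 passed (background for lower genes 0.339%), while 7 were lower at an unadjusted p under 0.05 (87.5%, background 9.71%). MKI67, a marker of cycling cells, went from 14.50 to 13.87 in Li-7 and from 13.20 to 11.42 in HEP-G2. CCNE2, a cyclin of the G1/S transition, went from 10.78 to 9.29 in Li-7 and from 7.01 to 5.09 in HEP-G2, and E2F1 from 9.38 to 8.001 in Li-7 and from 7.15 to 6.07 in HEP-G2, with both HEP-G2 values of each under the background limit. CCNE1, also a G1/S cyclin, had the smallest mean change (-0.51). The part of these markers in the result was not tested.

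Other genes of the pathway, listed apart from the members, were mostly lower by value, but less evenly. Of 45 listed, 42 had a probe set and 41 were tested. With limma, 0 passed in either direction after adjustment (backgrounds 0.339% lower and 0.0808% higher). At an unadjusted p under 0.05, 18 were lower (43.9%, background 9.71%) and 1 was higher (POLD4, against 1207 of all 12381 genes). Their median change was -0.24 (Li-7) and -0.63 (HEP-G2), and 25 of 41 were lower in both lines (61%, background 31%). At least 2-fold lower by value were 5 in Li-7 (12.2%, background 4.12%), 12 in HEP-G2 (29.3%, background 6.28%) and 3 in both (7.32%, background 1.76%). The lowest mean change was that of MMS22L, a fork repair factor (from 11.58 to 10.18 in Li-7 and from 11.04 to 8.79 in HEP-G2). ATAD5 and POLE3 were the other genes 2-fold lower in both lines. DTL, which marks CDT1 for destruction, stood at -0.94 (Li-7) and -2.36 (HEP-G2), and UHRF1, which guides maintenance methylation behind the fork, at -0.23 (Li-7) and -2.32 (HEP-G2). TOP1 (0.38 in Li-7, 0.19 in HEP-G2) and CHTF8 (0.40 in Li-7, 0.17 in HEP-G2) were among those higher in both lines, without passing.

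The members also differed in level between the lines. In the line term of the same limma fit, 29 of 46 were higher in Li-7 (63%, background 24.3%) and 2 were higher in HEP-G2 (4.35%, background 20.7%) at an adjusted p of 0.05. That term averages over control and mimic arrays, so differences in response enter it. The members' median difference was -0.96 (HEP-G2 minus Li-7), against -0.03 over all genes tested. On the control arrays alone it was -0.71, against -0.02. There 10 of 46 members and 6062 of 12381 genes were higher in HEP-G2. The lowest values were those of POLD3 (-3.03, SE 0.32, adjusted p = 0.000334), TIMELESS (-2.78, adjusted p = 0.000534) and PRIM1 (-2.50, adjusted p = 0.000351). Both TIMELESS values and the mimic value of POLD3 lay under the background limit in HEP-G2, so the size of their differences is uncertain. On the control arrays the 3 differences were -2.47, -2.21 and -2.20. ORC6 (0.94, adjusted p = 0.0279) and GMNN (1.06, SE 0.24, adjusted p = 0.0114) were the 2 members higher in HEP-G2, and MCM3 came next without passing (0.78, adjusted p = 0.0515). Within the MCM ring, MCM3 and MCM5 thus stood higher in HEP-G2 by value and MCM6 lower (-2.25, adjusted p = 0.000364). With the line term tested without treatment in the model the count of members called was 10 (21.7%), below the 30.6% of all genes. With an ordinary t statistic 0 members and 1 gene in all were called.

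**Figure D4:**
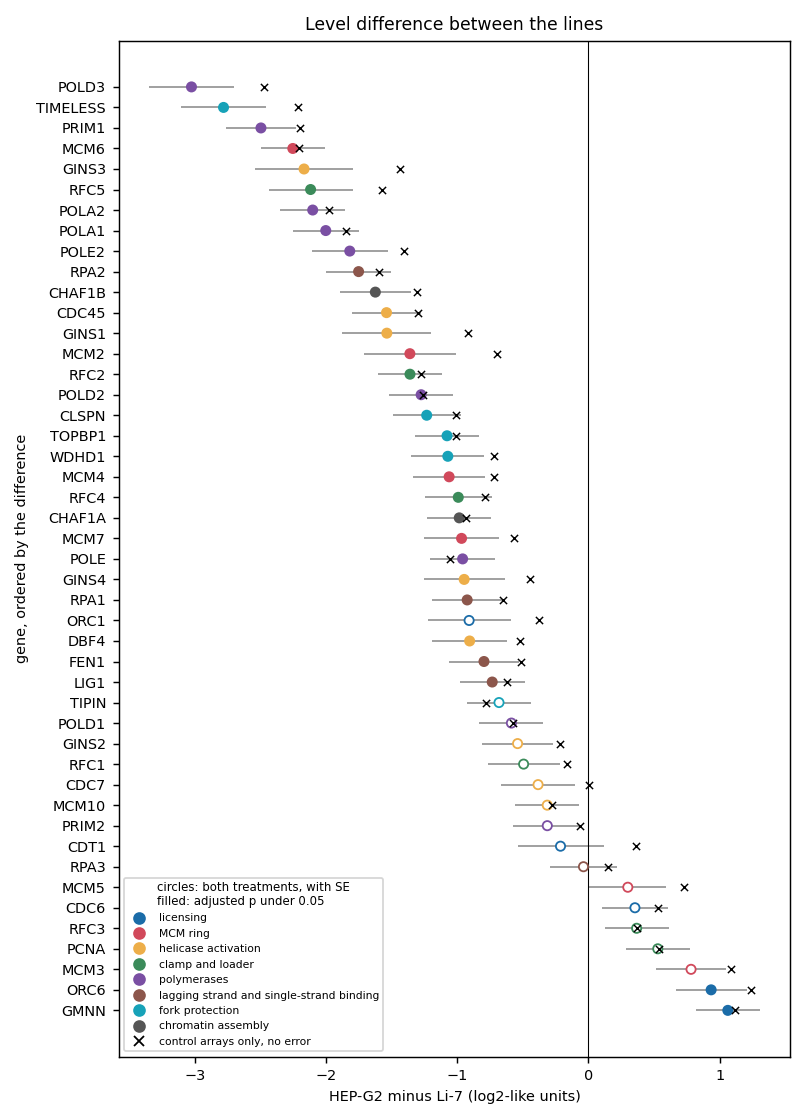
Level in HEP-G2 minus level in Li-7 (log2-like units) of each member, as circles over both treatments with the SE of the limma fit and as crosses on the control arrays alone, which have no error. Filled circles passed at an adjusted p of 0.05, and 29 of the 31 lie left of 0.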

How the data were processed

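RNA of each culture was measured on 1 Affymetrix array. The values, 1 per probe set, were summarised and deposited by the authors and are read here as log2. Per the submitters' processing notes, Affymetrix Expression Console and Transcriptome Analysis Console were used, but the sources used here give neither their settings nor the background correction, normalization or log base. Groups were taken from the sample titles.

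Of 24351 probe sets, 17709 carried 1 gene name in the platform annotation, and all matched a RefSeq gene by Entrez identifier (GRCh38.p14, whose current symbols were used). For the 20 genes with several probe sets the one with the highest mean stood for the gene. Genes whose mean over the arrays reached percentile 30 (4.90) were kept. No further normalization was done. Line and treatment were the terms of a linear model fitted over 12381 genes in R 4.3.3 with limma 3.58.1 (lmFit, eBayes, 5.85 prior degrees of freedom), with Benjamini-Hochberg adjustment over all of them and a threshold of 0.05. The procedure was also run on simulated arrays, but these held additive line and treatment effects only. They do not test it where the lines respond differently. Within a line, differences of single arrays have no test and are counted at 2-fold. Where a mimic value lay under its array's background limit (percentile 95 of negative controls) and the control value above its own, "at least" folds compare the control value with the limit of the mimic array.

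Members, lists, tests and alternatives were chosen with earlier results of these data known. Members given with all values were those that passed, the extremes of each of 8 role groups, those 2-fold lower in both lines, those higher by 0.25 or more in a line, and the extremes of the gap and level difference between the lines. Others are named for their role. The promoters shown were chosen after the values were seen. Whether the arrays came from separate cultures per treatment is not stated. The p-values rest on the disagreement between lines and, for the most part, on a variance pooled over all genes. The number of arrays limits the precision.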

Additional observations from a re-analysis of the deposited data

Results flagged for a closer look

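RFC1 and RPA1, the large subunits of the clamp loader and of the single-strand binding protein, had opposite signs in the lines, higher with the mimic in Li-7 and lower in HEP-G2. The HEP-G2 change minus the Li-7 change was -0.67 for RFC1 and -0.55 for RPA1. Each value rests on single arrays and the difference was not tested. Groups of 1 array allow no search for outlying samples.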

How the results depend on the processing

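Of the 46 members, 2 fell in the common test as deposited. The count was 24 after quantile normalization, 21 with a filter at the median gene, 13 with a filter at the background limit (6 members left untested by each filter), 25 with an intensity trend, 0 with an ordinary t statistic and 0 without cell line in the model. All genes called, 52 as deposited with 80.8% lower, were then 465 (58.7% lower), 366 (65.3%), 200 (70.5%), 411 (61.6%), 1 and 0, and 23 after cyclic loess. Background shares of genes that fell were 2.2%, 2.7%, 1.66% and 2.04% in the first 4 of these. Members called for a level difference between the lines went from 31 to 0 with an ordinary t statistic and to 10 without treatment in the model, where 30.6% of all genes were called. Members past the fold in Li-7 went from 20 at 2-fold to 32 at 1.5-fold (69.6%, background 12.3%). The cause of these shifts was not tested. RFC3 was called in 9 of 11 alternatives and MCM10 in 7 of 9, the exceptions being the ordinary t statistic and the model without cell line, with adjusted p between 0.00313 and 1 for RFC3 and between 0.00367 and 1 for MCM10. FEN1 was called in 6 of 11 (adjusted p between 0.00889 and 1). Signs changed in 2 cases, those of RFC1 (0.036) and POLD2 (0.036) after cyclic loess. The members' medians moved by less than their median SE under every alternative run. The line term already pairs mimic with control within each line, and the fit without it is the unpaired one. The labels carry no replicate numbers, and no array could be left out of groups of 1.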
